A study of Homo sapiens with 2 samples.

Results

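The MAGE genes followed here were MAGEA4, MAGEB2, MAGED1, MAGED2 and MAGEF1, 5 of the 11697 gene symbols in the authors' table of transcript levels. They were chosen by symbol, with no minimum level, and every listed transcript of each was kept, which gave 14 of the 29373 transcripts. The table covers 2 THP-1 cultures grown in RPMI-1640 with fetal bovine serum; THP-1 is a human cell line of monocytic character, derived from acute myeloid leukaemia. For 48 h, one was kept with DMSO, the solvent control, and one with OPA1 at 2 µM, a name the labels do not explain further. OPA1 is here a treatment and not the mitochondrial gene of that name. The title of the series speaks of opioid receptors, TET enzymes and loss of DNA methylation in leukaemia, so the MAGE genes bear on the question whether genes usually kept silent by methylation stood apart from relatives that most tissues use.

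The MAGE family is defined by a shared MAGE homology domain, through which many members bind RING-type ubiquitin ligases and alter what those ligases act on. Genes of the type I group, such as the MAGEA, MAGEB and MAGEC genes of the X chromosome, are called cancer-testis genes: germ cells of the testis and many tumours transcribe them, while promoter DNA methylation keeps them silent in most adult tissues, and inhibitors of DNA methylation can switch them on. Type II genes, among them MAGED1, MAGED2 and MAGEF1, are transcribed in many normal tissues. MAGEA4 binds and stabilises the DNA damage ligase RAD18, and MAGEB2 represses production of the stress granule protein G3BP1. MAGED1 is an adaptor that binds the p75 neurotrophin receptor, mutations of MAGED2 cause a transient antenatal form of Bartter syndrome, and MAGEF1 directs the ligase NSMCE1 to MMS19, a factor that delivers iron-sulfur clusters.

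Promoter letters are shown first, because the contrast between the MAGE classes rests on DNA methylation at CG dinucleotides. All 5 genes had windows in the RefSeq promoter table for GRCh38.p14, each running from 250 bases before a start site to 50 after it; the expression table itself is on hg19. One window per gene is given, that of the complete MAGEA4 transcript and of leading transcripts of the others, 5′ to 3′ on the gene's strand, with every CG in capitals. The MAGEA4 window (chrX:151916675-151916974, plus strand) has its start site at that of MAGEA4-205, and that of the MAGEB2 window (chrX:30215313-30215612, plus strand) lies 3 bases from the start of MAGEB2-201. The start site of the MAGED1 window (chrX:51802826-51803125, plus strand) lies 69 bases from that of MAGED1-204, the site of the MAGED2 window (chrX:54808096-54808395, plus strand) 8 bases from MAGED2-201 and 25 from MAGED2-204, and the site of the MAGEF1 window (chr3:184712015-184712314, minus strand) 62 bases from MAGEF1-201. MAGED2-207, the highest MAGED2 transcript with OPA1, starts 714 bases from the site of the MAGED2 window and so outside that window.
MAGEA4: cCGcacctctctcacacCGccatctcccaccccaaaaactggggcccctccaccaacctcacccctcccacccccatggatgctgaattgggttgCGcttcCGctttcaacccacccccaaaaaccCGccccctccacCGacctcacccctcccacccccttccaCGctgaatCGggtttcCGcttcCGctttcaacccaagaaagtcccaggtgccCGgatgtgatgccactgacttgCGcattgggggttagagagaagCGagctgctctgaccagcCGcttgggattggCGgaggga
MAGEB2: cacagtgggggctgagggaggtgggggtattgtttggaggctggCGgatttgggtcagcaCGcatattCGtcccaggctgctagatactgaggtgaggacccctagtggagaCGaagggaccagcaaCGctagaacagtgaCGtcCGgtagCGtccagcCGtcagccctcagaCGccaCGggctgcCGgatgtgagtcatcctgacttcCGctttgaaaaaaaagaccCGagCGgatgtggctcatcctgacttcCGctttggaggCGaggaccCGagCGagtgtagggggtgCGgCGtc
MAGED1: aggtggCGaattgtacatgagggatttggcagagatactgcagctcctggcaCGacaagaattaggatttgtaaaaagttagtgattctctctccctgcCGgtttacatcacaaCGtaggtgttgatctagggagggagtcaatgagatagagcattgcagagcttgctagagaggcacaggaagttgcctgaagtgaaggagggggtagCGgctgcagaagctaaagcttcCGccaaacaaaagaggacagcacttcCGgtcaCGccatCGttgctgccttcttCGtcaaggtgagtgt
MAGED2: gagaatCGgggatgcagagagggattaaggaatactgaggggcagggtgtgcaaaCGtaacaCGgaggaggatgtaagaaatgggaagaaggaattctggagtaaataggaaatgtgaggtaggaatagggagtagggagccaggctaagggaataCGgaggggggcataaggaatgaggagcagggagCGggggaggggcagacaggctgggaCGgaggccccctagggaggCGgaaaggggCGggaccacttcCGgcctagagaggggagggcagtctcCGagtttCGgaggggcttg
MAGEF1: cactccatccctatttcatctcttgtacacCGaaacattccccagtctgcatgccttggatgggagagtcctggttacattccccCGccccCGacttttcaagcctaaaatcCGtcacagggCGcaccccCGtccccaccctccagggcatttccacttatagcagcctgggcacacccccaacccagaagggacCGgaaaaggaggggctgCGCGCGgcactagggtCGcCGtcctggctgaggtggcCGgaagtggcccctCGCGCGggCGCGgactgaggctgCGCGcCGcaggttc

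The cancer-testis and the broadly expressed genes were not separated by the CG content of these windows. The MAGEA4 window held 15 CG and the MAGEB2 window 21, against 10 in the MAGED1 window, 11 in the MAGED2 window and 21 in the MAGEF1 window. All 35116 windows of the table had a median of 14. MAGEA4 has 5 windows in the table, one for each RefSeq start, and they held 10, 11, 13, 15 and 15 CG. The other MAGED1 window, near MAGED1-203, held 20, and the other MAGED2 window, near MAGED2-202, held 10. All 11 windows therefore lay between 10 and 21 CG. The observed over expected CG ratio was 0.58 for the printed MAGEA4 window, 0.79 for MAGEB2, 0.56 for MAGED1, 0.61 for MAGED2 and 0.70 for MAGEF1, with a median of 0.58 over all windows. Methylation itself was not measured in these libraries.

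**Figure D1:**
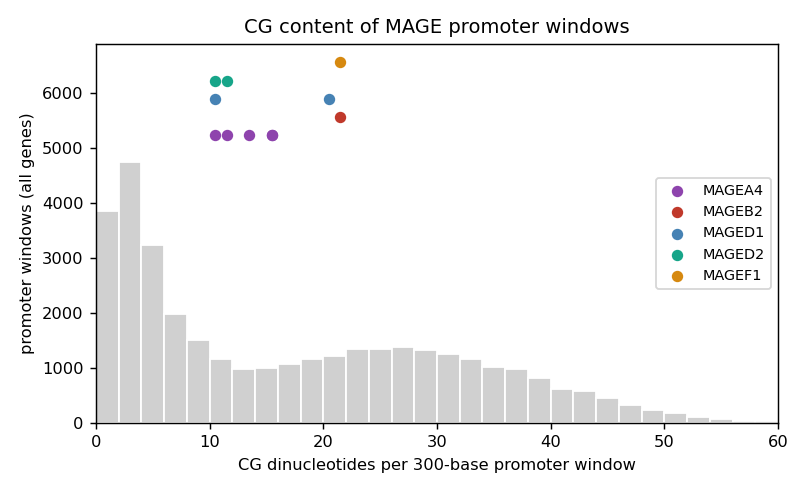
Number of CG dinucleotides in each 300-base promoter window: grey bars count all 35116 RefSeq windows, and coloured points mark the 11 windows of the MAGE genes at their value on the horizontal axis (their height only separates the genes, and 2 MAGEA4 points coincide at 15). The MAGE windows lie between 10 and 21 CG, in the dip between the CG-poor and CG-rich windows.

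Letter runs were compared as well. The longest runs shared within the cancer-testis windows were extracted from these windows themselves, so their presence there is by construction, and both strands of all windows were then searched for them. The longest run common to all 5 MAGEA4 windows and the MAGEB2 window was CCGGATGTGA, which 0.12% of all windows and none of the MAGED1, MAGED2 or MAGEF1 windows held. Its 35 symbols included 6 further family members, MAGEA2, MAGEA2B, MAGEA9, MAGEA9B, MAGEA11 and MAGEA12. Within MAGEA4 the run extended to GCCCGGATGTGA in all 5 windows, which overlaps the shorter one, and all 5 also held CTGACTTGCGCA, found in 0.037% of all windows and in the family in MAGEA2, MAGEA2B, MAGEA3 and MAGEA6. The MAGEB2 window contained the 20-base run TCATCCTGACTTCCGCTTTG 2 times, and it occurred otherwise only in windows of MAGEB1 and LOC107985632. The letters CCGGAAGT, a core that ETS transcription factors prefer, were present once in each of the printed MAGED1, MAGED2 and MAGEF1 windows and in 4.14% of all windows. They were in neither the other MAGED1 window nor the other MAGED2 window, and in none of the MAGEA4 or MAGEB2 windows. Only these exact letters were searched. CCGGATGT, which opens the run shared by the MAGEA4 and MAGEB2 windows, is a close variant and was not counted as this core. The 20-base MAGEB2 run holds ACTTCCGC, which reads GCGGAAGT on the other strand and was not counted either. The printed MAGEA4 window holds CTTCCGC, or GCGGAAG on the other strand. Absence of the exact letters therefore does not mean that the cancer-testis windows lack related letters. These matches describe letters only.

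The comparison of the cultures has 1 library per treatment, which allows no test and no estimate of the spread between cultures. Levels are the authors' FPKM, fragment numbers scaled to transcript length and library size, summed over the listed transcripts of a gene. Read numbers are not in the table, and counting intervals are therefore not given. Listed FPKM summed to 325059 (DMSO) and 331515 (OPA1). Ratios are OPA1 over DMSO, given as log2 after adding 1 FPKM to each level, and fold values of single genes are plain ratios of FPKM. Among the 10601 genes averaging 1 FPKM or more, 420 (3.96%) were 2-fold or more apart, 1.97% higher and 1.99% lower with OPA1, and log2 ratios had an interquartile range of -0.15 to 0.16. Of 10 monocytic markers 9 were listed, 5 higher and 4 lower with OPA1, with a summed level of 408 FPKM under DMSO and 422 under OPA1. The largest ratios among them were those of CD68, a lysosomal protein of macrophages, at 20.7 and 14.2 FPKM (log2 ratio -0.52), LYZ, lysozyme, at 76.5 and 91.0 FPKM (0.25), and PTPRC, the leukocyte surface phosphatase CD45, with a log2 ratio of -0.23. Their part in the MAGE values was not tested. Of 9 markers of T, B, erythroid, epithelial, stromal and endothelial cells looked up only the B cell gene CD79A was listed, at 0.15 and 0.64 FPKM.

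On summed FPKM, the MAGE gene that differed most between the libraries was the broadly expressed MAGED2, at 1.77-fold, followed by the cancer-testis gene MAGEA4, at 1.48-fold; MAGEB2, MAGED1 and MAGEF1 were at most 1.16-fold apart. On this scale no member reached a 2-fold difference, beside a background of 3.96% of genes. The order of MAGED2 and MAGEA4 turned when transcripts were weighted by length, a choice made after seeing the data, with MAGEA4 then at 2.30-fold and MAGED2 at 1.75-fold. The order of the levels was the same in both libraries: MAGEB2 was highest, then MAGEF1, MAGED2, MAGED1 and MAGEA4. Without replicates, whether neighbours in this order differ beyond culture-to-culture spread cannot be said. In bulk RNA, a gene used by fewer cells and a gene with less RNA per cell cannot be told apart.

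**Figure D2:**
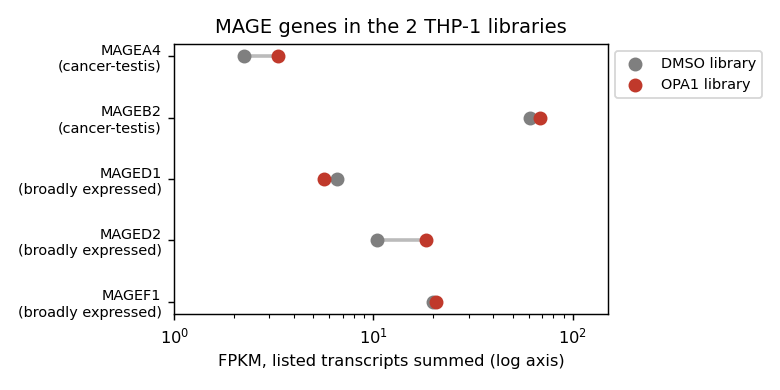
Summed FPKM of the 5 MAGE genes on a log axis, with 1 grey point for the DMSO library and 1 red point for the OPA1 library joined by a line. The lines are longest for MAGED2 (10.4 to 18.4 FPKM) and MAGEA4 (2.24 to 3.30 FPKM), and the points of MAGEF1 nearly coincide.

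Of the cancer-testis genes, MAGEB2 (chromosome X, 30233677 to 30238206, plus strand, hg19) measured 60.7 FPKM under DMSO and 68.6 under OPA1. Both values came from MAGEB2-201, its only listed transcript, of 2 exons. This was a high level among all genes: in the DMSO library 91.9% of the 10601 genes were at or below it, and in the OPA1 library 93.0%. The DMSO-treated culture thus already held abundant MAGEB2 mRNA. The log2 ratio was 0.17 (1.13-fold), and of 810 genes whose mean level lay within 1.5-fold of that of MAGEB2, 33.5% had a ratio at least as large in either direction.

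MAGEA4 (chromosome X, 151084667 to 151093642, plus strand) measured 2.24 FPKM under DMSO and 3.30 under OPA1. It stood low in both libraries, with 12.8% and 20.9% of genes at or below it, and MAGEB2 was 27.2-fold and 20.8-fold above it on the FPKM scale. The log2 ratio was 0.41, and 22.6% of 1788 genes at a like level had a ratio at least as large.

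The summed MAGEA4 value hid an exchange between transcripts. MAGEA4-205, which carries the complete coding sequence of 951 bases, was listed at 0 under DMSO and reached 2.22 FPKM under OPA1. MAGEA4-208 measured 1.55 FPKM under DMSO and 0.74 under OPA1, and MAGEA4-211 was at 0.69 and 0.34 FPKM. GENCODE release 29 marks MAGEA4-208 and MAGEA4-211 as incomplete at an end, with 651 and 724 coding bases. So with DMSO all of the listed MAGEA4 signal was assigned to incomplete models, and with OPA1 67.2% of it was assigned to the complete one. Listed transcripts reach 0.5 FPKM in at least 1 library. MAGEA4-205 met this only through its OPA1 value and MAGEA4-211 only through its DMSO value, so this contrast depends in part on what was listed. Only 3 of the 14 annotated MAGEA4 transcripts were listed; the others were not analysed here. A value of 0 in such a table can be a failed estimate and not absence.

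The models differ in length, 1721 bases for MAGEA4-205 against 914 and 997 for the incomplete ones, and this changes the gene's ratio. Multiplied by transcript length and summed, MAGEA4 had a length-weighted sum (FPKM times kilobases) of 2.10 under DMSO and 4.84 under OPA1, which is 2.30-fold (log2 ratio 0.91 after adding 1). On MAGEA4-208 alone, the most abundant transcript over both libraries, the log2 ratio was -0.55. MAGEA4-205, close behind it in level over both libraries, had a log2 ratio of 1.69. The direction of MAGEA4 therefore depended on how its transcripts were joined. A share of 67.2% of its FPKM sat on another transcript in the other library, and 7.4% of 7204 genes with at least 2 listed transcripts had an exchange as large (median 13.8%). Among 430 such genes within 1.5-fold of its mean level and with at least 3 listed transcripts, 14.4% did. Of the 50-base stretches of the listed MAGEA4 transcripts, 3.35% also occur in transcripts of other genes, among them MAGEA1, MAGEA5, MAGEA8 and MAGEA10, so part of its reads could have been divided with paralogs. None of the 50-base stretches of MAGEB2, MAGED1 or MAGEF1 did.

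Of the broadly expressed genes, MAGED2 (chromosome X, 54834032 to 54842445, plus strand) measured 10.4 FPKM under DMSO and 18.4 under OPA1. The log2 ratio was 0.77, and 5.75% of 2433 genes at a like level had a ratio at least as large. It passed from a level with 54.3% of genes at or below it to one with 70.4%. Its 50-base stretches were shared with TRO alone, at 0.14%.

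As groups, only the MAGED2 transcripts that end at the nearest listed 3′ end were higher with OPA1. MAGED2-201 measured 1.14 FPKM under DMSO and 5.41 under OPA1, MAGED2-207 was at 0.59 and 5.45 FPKM, and MAGED2-203 at 0.40 and 1.08 FPKM. These 3 transcripts end at position 54842127 and together were at 2.13 and 11.9 FPKM, or 5.60-fold higher with OPA1. Of them, MAGED2-203 was listed only through its OPA1 value. The 4 transcripts that end 313 to 318 bases further on were together at 8.25 and 6.47 FPKM. Within them MAGED2-204, the leading transcript with DMSO, was at 4.40 and 1.90 FPKM and MAGED2-202 at 2.62 and 1.79 FPKM, while MAGED2-206 was at 0.55 and 1.88 FPKM and MAGED2-205 at 0.68 and 0.90 FPKM. The share of MAGED2 FPKM on the nearest end was 20.5% with DMSO and 64.9% with OPA1. This grouping by end was made after the values were seen.

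Grouped by coding sequence instead, 5 of the 7 MAGED2 transcripts have the same coding exons of 1818 bases and differ only outside them. Their joint level was 7.08 FPKM with DMSO and 15.7 FPKM with OPA1, or 2.22-fold higher. The remaining 2 have other coding exons, of 1764 bases in MAGED2-202 and 1563 bases in MAGED2-205. Lengths of the 7 transcripts ran from 1798 to 2189 bases, and with length taken into account the gene was 1.75-fold higher (length-weighted sums of 21.4 and 37.4). In all, 49.2% of MAGED2 FPKM sat on another transcript in the other library, and 15.1% of genes with at least 2 transcripts had an exchange as large.

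MAGED1 (chromosome X, 51546103 to 51645450, plus strand) measured 6.58 FPKM under DMSO and 5.67 under OPA1, 1.16-fold lower (log2 ratio -0.18). Nearly all of it was MAGED1-204, at 5.95 and 5.66 FPKM. MAGED1-203, which has the same coding exons of 2334 bases and starts about 90.5 kb further along the gene, was at 0.63 and 0.011 FPKM. MAGED1-203 was listed only through its DMSO value, and the log2 ratio of MAGED1-204 alone was -0.06. The size of the MAGED1 ratio thus depends in part on what was listed. Of 2599 genes at a like level, 48.3% had a ratio at least as large as that of MAGED1. Its transcripts were steadier than those of MAGED2, with 9.32% of FPKM exchanged, and 60.1% of genes with at least 2 transcripts exchanged as much or more.

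MAGEF1 (chromosome 3, 184428155 to 184429790, minus strand) is the member outside the X chromosome and has a single exon. It was level, at 20.0 FPKM under DMSO and 20.5 under OPA1 (log2 ratio 0.03). Of 2150 genes at a like level, 86.2% had a ratio at least as large.

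**Figure D3:**
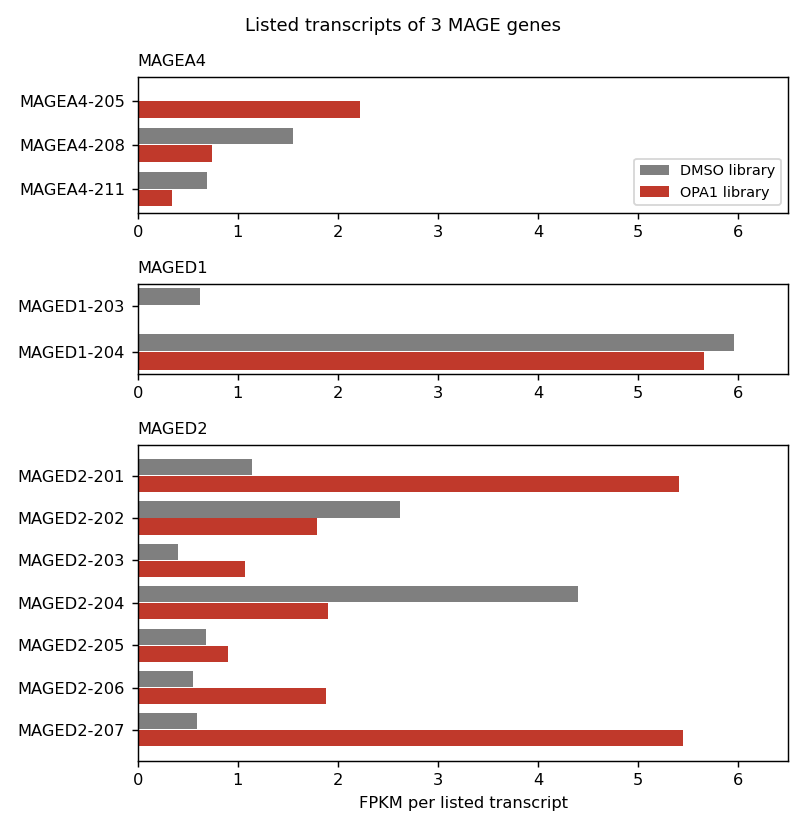
FPKM of each listed transcript of MAGEA4, MAGED1 and MAGED2, with grey bars for the DMSO library and red bars for the OPA1 library, 1 library each. MAGEA4-205 has a bar with OPA1 only (2.22 FPKM), and MAGED2-201 and MAGED2-207 exceed 5 FPKM with OPA1 only, where MAGED2-204 is shorter than with DMSO.

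Over all 14 member transcripts, 10 averaged 1 FPKM or more. Of these, MAGEA4-205, MAGED2-201 and MAGED2-207 were 2-fold or more higher with OPA1 on the log2(FPKM + 1) scale, and none was 2-fold lower on that scale. In plain FPKM ratios MAGED2-204 was 2.32-fold and MAGEA4-208 2.09-fold lower, and MAGED2-206 was also higher, at 3.39-fold. MAGEA4-205 averaged 1 FPKM or more only through its OPA1 value. Among all 19623 transcripts with such a mean, 18.2% were 2-fold or more apart, against 3.96% of genes, so differences of this size were common for single transcripts in these libraries.

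Set against each other, the log2 ratios of the MAGE classes overlapped: 0.17 and 0.41 for the cancer-testis pair lay between the -0.18 of MAGED1 and the 0.77 of MAGED2. The mean log2 ratio was 0.29 for MAGEA4 and MAGEB2 and 0.21 for MAGED1, MAGED2 and MAGEF1, a difference of 0.09. Leaving out MAGED2 raised this difference to 0.37, and leaving out MAGEA4 brought it to -0.03, so its size and sign turned on single genes. On transcript length-weighted sums it was 0.34, and with the most abundant transcript of each gene it was -0.71. In MAGEA4 and MAGED2 the most abundant transcript led by a small margin over one with a ratio of opposite sign. Summed FPKM went from 63.0 to 71.9 in the cancer-testis pair and from 37.0 to 44.6 in the other 3 genes. These sums rested mainly on MAGEB2, 7.88 FPKM higher with OPA1, and on MAGED2, 8.02 FPKM higher. MAGEA4 was 1.07 FPKM and MAGEF1 0.50 FPKM higher, and MAGED1 was 0.91 FPKM lower.

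**Figure D4:**
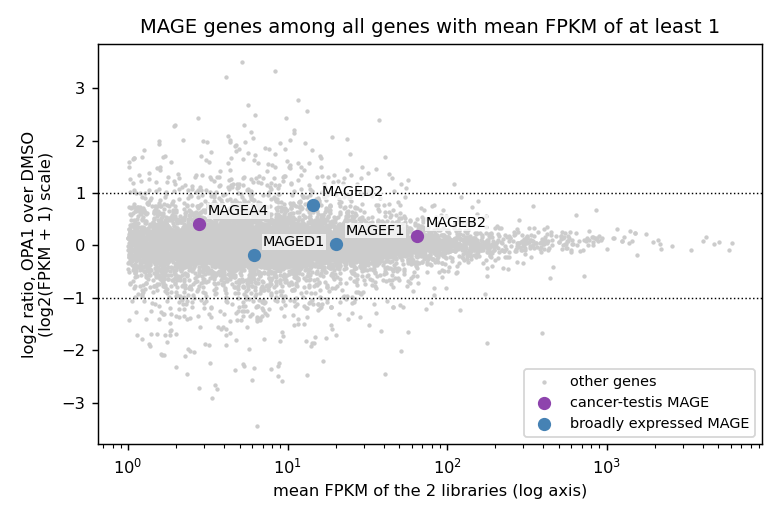
Log2 ratio of OPA1 over DMSO (log2(FPKM + 1) scale) against mean FPKM on a log axis for the 10601 genes averaging 1 FPKM or more; grey points are other genes, purple points MAGEA4 and MAGEB2, blue points MAGED1, MAGED2 and MAGEF1, and dotted lines mark 2-fold. All 5 MAGE genes lie between the dotted lines, MAGED2 nearest to one at 0.77.

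Further genes of the family were scarce in the table. Of 26 type I genes looked up, MAGEA4 and MAGEB2 were listed and the other 24 were not analysed here. Of 12 type II genes 7 were listed. Beside MAGED1, MAGED2 and MAGEF1, MAGEH1 measured 3.08 FPKM under DMSO and 4.58 under OPA1 (1.49-fold, log2 ratio 0.45). NSMCE3, the MAGE subunit of the SMC5/6 complex, was at 6.35 and 7.16 FPKM (log2 ratio 0.15). MAGEE1 was at 0.81 and 0.85 FPKM and TRO, also called MAGED3, at 0.48 and 0.51 FPKM. Of the 5 type II genes averaging 1 FPKM or more, 4 were higher and 1 lower with OPA1 (median log2 ratio 0.15), against -0.00024 over all genes.

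Among other cancer-testis and germline genes, 4 of 43 were listed, with 3 higher and 1 lower and a median log2 ratio of 0.11. PRAME, a receptor subunit of a cullin ubiquitin ligase and a leukaemia antigen, measured 56.6 FPKM under DMSO and 56.9 under OPA1. TKTL1, a transketolase-like gene, was at 6.48 and 8.29 FPKM. XAGE1A and XAGE1B were at 35.8 and 26.2 FPKM with DMSO and at 31.9 and 30.4 FPKM with OPA1; they are near-identical copies, so their separate values are uncertain. Like MAGEB2, PRAME and the XAGE1 genes were therefore at high levels in the culture that had received solvent only.

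Of 9 ubiquitin enzymes that MAGE proteins bind 7 were listed, 2 higher and 5 lower with OPA1 (median log2 ratio -0.06). The ratios of TRIM28, NSMCE1 and HUWE1 lay inside the interquartile range of all genes and those of the other 4 outside it. USP7, a deubiquitinase that works with MAGEL2 and TRIM27, was the one gene of this list 2-fold or more apart (background 3.96%), at 24.5 FPKM under DMSO and 11.1 under OPA1 (log2 ratio -1.07). Its transcript USP7-201 was at 16.6 and 11.1 FPKM. USP7-207, an incomplete model, was at 5.18 FPKM with DMSO and USP7-202 at 2.67 FPKM, and both were listed at 0 with OPA1. USP7-207 and USP7-202 were listed only through their DMSO values, so the 2-fold difference of USP7 depends on what was listed. PJA1, the ligase that binds MAGED1, was at 2.46 and 3.93 FPKM (log2 ratio 0.51). PJA1-202 was at 2.41 and 1.36 FPKM and PJA1-203 at 0.057 and 2.57 FPKM. PJA1-203 was listed only through its OPA1 value, so the direction of PJA1 depends on what was listed. RAD18, the partner of MAGEA4, was at 8.69 and 7.17 FPKM (log2 ratio -0.25), and TRIM27 at 7.90 and 9.35 FPKM (log2 ratio 0.22). NSMCE1, the ligase of MAGEF1 and NSMCE3, was at 17.3 and 16.3 FPKM, and TRIM28, the ligase of several type I proteins, at 58.3 and 58.1 FPKM.

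Of 13 other partners and targets looked up 12 were listed, 8 higher and 4 lower (median log2 ratio 0.03). Of the targets tied to MAGEF1, MMS19 measured 12.6 FPKM under DMSO and 9.40 under OPA1 (log2 ratio -0.39), and FAM96B, which works with MMS19, was at 12.8 and 17.6 FPKM (log2 ratio 0.42). The leading MMS19-201 was higher with OPA1, at 7.46 and 8.30 FPKM. MMS19-202 and MMS19-203, at 3.48 and 0.60 FPKM with DMSO, were listed at 0 with OPA1. The other MMS19 transcripts were below 1 FPKM in both libraries. MMS19-202 and MMS19-203 were listed only through their DMSO values, so the direction of MMS19 depends on what was listed. G3BP1, the stress granule protein that MAGEB2 represses, was at 36.6 and 33.3 FPKM. CIAO1, a further factor of iron-sulfur cluster delivery, was at 9.14 and 11.5 FPKM (log2 ratio 0.30).

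Of the DNA methylation and silencing genes all 16 were listed, and 15 averaged 1 FPKM or more, 8 of them higher and 7 lower (median log2 ratio 0.01) and none past 2-fold. The maintenance methyltransferase DNMT1 had the lowest ratio of the list, -0.73, and the dioxygenase TET2 the highest, 0.56. In each, another transcript led in the other library. DNMT1-201 was at 4.05 and 24.9 FPKM and DNMT1-202 at 35.8 and 8.16 FPKM. DNMT1-203 and DNMT1-226, at 13.0 and 2.57 FPKM with DMSO, were listed at 0 with OPA1. TET2-203 was at 2.60 and 0 FPKM, TET2-204 at 0 and 0.95 FPKM and TET2-209 at 0.0062 and 3.37 FPKM. Both gene ratios therefore depend in part on what was listed. UHRF1, which brings DNMT1 to hemimethylated DNA, measured 42.5 FPKM under DMSO and 42.8 under OPA1, the histone methyltransferase EHMT2 was at 15.3 and 19.8 FPKM, and SETDB1, a further histone methyltransferase, at 32.4 and 34.2 FPKM. Of the EHMT2 transcripts only EHMT2-201 was higher with OPA1, at 0.35 and 6.58 FPKM. It was listed only through its OPA1 value, so the direction of EHMT2 depends on what was listed. EHMT2-203 was at 14.4 and 13.1 FPKM and EHMT2-202 at 0.59 and 0.074 FPKM.

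**Figure D5:**
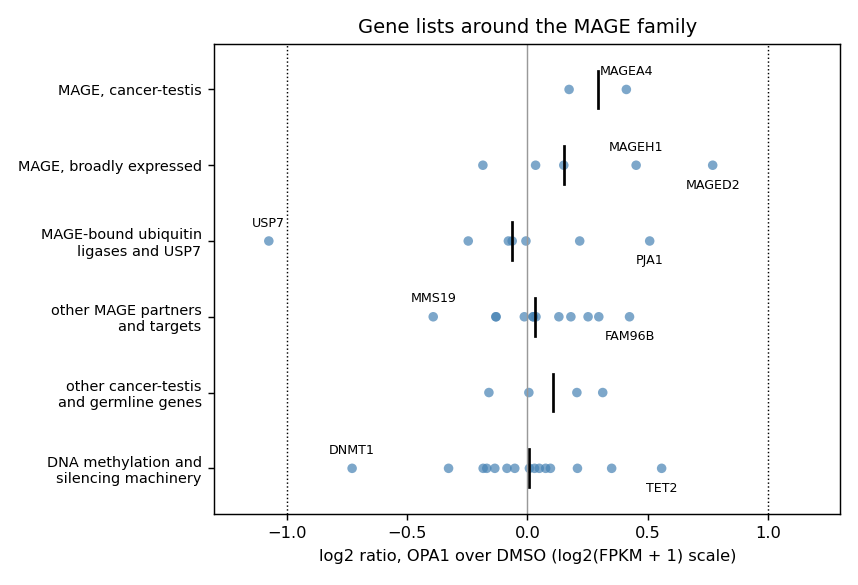
Log2 ratio of OPA1 over DMSO (log2(FPKM + 1) scale) for the genes of each list averaging 1 FPKM or more; each point is 1 gene, black bars are list medians, dotted lines mark 2-fold, and names are given to points furthest from 0. Of the points shown only USP7 lies past a dotted line, and the list medians lie between -0.06 and 0.29.

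The X chromosome, which carries 4 of the 5 members, had ratios close to those of all genes. Of 366 X-linked genes averaging 1 FPKM or more, 200 were higher and 166 lower with OPA1 (median log2 ratio 0.02), and 4.1% were 2-fold or more apart against 3.96% of all genes.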

How the data were processed

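Per the file headers, the deposited table gives FPKM per transcript, for 1 DMSO and 1 OPA1 library of THP-1 total RNA. HISAT, StringTie, edgeR and the hg19 build appear in the submitters' processing notes, with no version or role. All 29373 rows are protein_coding and reach 0.5 FPKM in 1 library, which was tested on the table; 2 further lines were blank and not analysed here. FPKM is relative to the reads of a library. Transcripts were summed by symbol, and log2((OPA1 + 1)/(DMSO + 1)) was taken, with counts over genes of mean 1 FPKM or more. A gene at a like level had a mean FPKM within 1.5-fold of that of the member.

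Members and lists were chosen with earlier results of these data known. Named genes were the members and their transcripts, all listed MAGE genes, the 3 largest ratios of each list and the 3 genes nearest to each member in level; others were chosen after their values were seen. Some list genes are not reported here and are left out of list counts and medians. Transcript lengths and coding exons came from GENCODE release 29 by transcript ID (29240 of 29373 matched), since that release is on another build; all 14 member transcripts kept their genomic span. Promoter windows came from RefSeq. Alternatives were other pseudocounts, minimum levels, rescalings of the libraries and ways of joining transcripts. The ratio step was tested on simulated data. Figures were drawn with matplotlib 3.10.9, and all else was computed with pandas 2.3.3 and numpy 2.4.6 under Python 3.11.15.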

Additional observations from a re-analysis of the deposited data

How the results depend on the processing

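A log2 ratio is said to move here where it shifted by 0.1 or more, since no replicate spread exists. MAGEB2 and MAGEF1 moved under none of 7 alternatives, with ranges of 0.15 to 0.18 and 0.01 to 0.04. MAGEA4 moved to 0.54 and 0.56 with pseudocounts of 0.1 and 0.01 FPKM, to 0.91 on length-weighted sums, and reversed to -0.55 on its most abundant transcript. With the most abundant transcript, MAGED1 was at -0.063 and MAGED2 at 1.58. The difference between the classes reversed to -0.71 with that choice and to -0.033 without MAGEA4, and moved to 0.34 on length-weighted sums and to 0.37 without MAGED2. For MAGEA4 and MAGED2 the pick of the most abundant transcript was close. The next in level, MAGEA4-205 and MAGED2-204, had log2 ratios of 1.69 and -0.90, so values from this choice were fragile. Length weighting and leaving out members were chosen after seeing the data. These shifts come from the pseudocount, the way transcripts were weighted or picked, and the members kept. Why the transcript levels themselves differed between the libraries was not tested. The 420 genes at least 2-fold apart became 640 and 678 with the smaller pseudocounts, 1199 with the most abundant transcript and 234 at a minimum mean of 5 FPKM. Every other alternative run, including rescaling, centring and trimmed scaling, left each log2 ratio within 0.1 and the count within 1.5-fold of the value reported. No paired analysis was possible because each treatment has 1 library. Depth is unknown, so the precision of low genes such as MAGEA4 cannot be given.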

Other observations

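Of 20 measured genes next to the members on the chromosome, 11 were higher and 9 lower with OPA1 (median log2 ratio 0.01), none was 2-fold apart, and 8 lay inside the interquartile range of all genes. The highest ratio was that of EHHADH, a peroxisomal enzyme of fatty acid oxidation beside MAGEF1, at 4.04 and 6.09 FPKM (log2 ratio 0.49). On the same side VPS8 had the lowest, at 1.61 and 1.20 FPKM (-0.25). Beside MAGED1, NUDT11 was at 3.58 and 4.64 FPKM (0.30) and GSPT2, a translation termination factor, had a log2 ratio of 0.04. Beside MAGED2, GNL3L measured 14.3 FPKM under DMSO and 12.8 under OPA1 and APEX2, a base excision repair nuclease, was at 7.67 and 7.87 FPKM, and FAM104B had a log2 ratio of 0.20. Beside MAGEA4, VMA21, an assembly factor of the vacuolar proton pump 507 kb away, was at 31.3 and 31.4 FPKM and CETN2, a centrin 902 kb away, at 15.2 and 15.8 FPKM. Beside MAGEB2, and 339 kb from it, CXorf21 was at 68.2 and 77.0 FPKM, so both its level and its log2 ratio of 0.17 were close to those of MAGEB2; on the other side no gene averaging 1 FPKM or more was listed within 5219 kb, where POLA1, a DNA polymerase subunit, was at 15.7 and 13.4 FPKM (-0.21). The gene GK, which encodes glycerol kinase and lies beyond CXorf21, was at 11.5 and 9.67 FPKM (-0.23). These neighbours were chosen after seeing the data, as the nearest listed genes of that level on each side. They need not adjoin the members: gaps ran from 56.8 kb (GSPT2 to MAGED1) to 5676 kb (PDK3 to MAGEB2).

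By distance in log2(FPKM + 1) over the 2 libraries, the genes nearest to each member were CCNL2, HOXA7 and PIDD1 for MAGEA4 (distances 0.022 to 0.039), SRM, MTCH1 and KTN1 for MAGEB2 (0.022 to 0.043), ADCY7, TTC32 and CHST14 for MAGED1 (0.0035 to 0.010), CDIPT, ALDOC and MKNK2 for MAGED2 (0.039 to 0.095) and SEPT8, CTSD and VEZF1 for MAGEF1 (0.0049 to 0.010). With 2 libraries this likeness says only that the levels were close.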
